A study of Mus musculus with 30 samples.

Results

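Motile cilia genes were followed in whole mouse lung at 4 times in low oxygen, by probe sets for 40 listed genes of the ciliary axoneme, its regulators and the ciliated airway cell. A probe set entered when the platform annotation gave it exactly 1 symbol and that symbol was a listed gene. This found 61 probe sets for 37 of the 40 genes, among 15965 genes with a single symbol on the chips, and no probe set for Dnah11, Rsph4a or Ccdc40. The list was chosen with the differences from Norm known, so values of the 4 comparisons with Norm are given as a description, with no test read from them.

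Total RNA of murine lung was measured on 3 oligonucleotide array types (A, B and C), and the values are deposited intensities in arbitrary units. The groups were a group titled Norm and animals kept in a chamber with 10% O2, to produce pulmonary hypertension, for 10 h, 2 d, 4 d or 6 d. Each group had 2 samples, 1a and 1b. The titles do not spell out Norm, and the labels used here give no strain, sex, age or genotype. Nothing in the labels ties 1a and 1b to separate animals, so p-values measure the spread between these arrays only, which may be technical.

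A motile cilium is built on a ring of doublet microtubules around a central pair. Outer and inner dynein arms slide the doublets against each other, radial spokes and the central pair set the beat, the dynein regulatory complex links neighbouring doublets, and tektins and other inner proteins line the microtubules. In the airway these genes are expressed by ciliated cells, whose beat moves mucus upward. Foxj1 and the RFX factors switch the programme on, the RFX factors by binding the X-box, a short motif with a left and a right arm near the start of many cilia genes.

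The X-box was searched as GTNNCC, a spacer of 0 to 3 bases and NGNAAC on both strands of RefSeq promoter windows (GRCm38.p6, from 250 bases before to 50 after each gene start). Of the 37 genes on the chips, 33 had a window and 4 (Foxj1, Dnaaf1, Rsph1 and Tppp3) had none in the table. The motif stood in 19 of 38 member windows (50%), for 18 genes, against 1726 of 32851 windows in all (5.25%). The left arm GTTGCC, one of the spellings the X-box search accepts, stood in 55.3% of member windows and 12.5% of all, and the forkhead core TGTTTAC in 5.26% of member windows and 3.65% of all. A match is a string of letters and was not tested for binding. The sites of 9 members described below are shown because their values carry the results; capitals mark the X-box, lower case the flanking bases, and all read 5′ to 3′ on the strand of the gene.
Ccdc153, chr9:44240534-44240565, plus strand: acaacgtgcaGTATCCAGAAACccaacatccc
Fam183b, chr11:58801961-58801986, minus strand: aggaacatccGTTGCCTGGAAACtgt
Dynlrb2, chr8:116504954-116504986, plus strand: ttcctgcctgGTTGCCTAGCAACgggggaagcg
Hydin, chr8:110266946-110266976, plus strand: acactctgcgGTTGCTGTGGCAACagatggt
Dnah9, chr11:66168611-66168643, minus strand: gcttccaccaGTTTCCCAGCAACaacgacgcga
Lrrc23, chr6:124779869-124779901, minus strand: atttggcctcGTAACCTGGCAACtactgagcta
Tekt2, chr4:126325695-126325727, minus strand: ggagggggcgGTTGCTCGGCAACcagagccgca
Spag6l, chr16:16829316-16829329, minus strand: GTTGCCCTGGAGAC
Drc3, chr11:60353378-60353390, plus strand: GTTCCCCAGCAAC
The Spag6l site lies after the annotated start and the Drc3 site spans it, and only the motif is printed for both. Of the 22 member sites, 12 (54.5%) were centred in the 100 bases before the start, against 45% of the sites of all promoters, as the map of X-box positions shows.

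**Figure D1:**
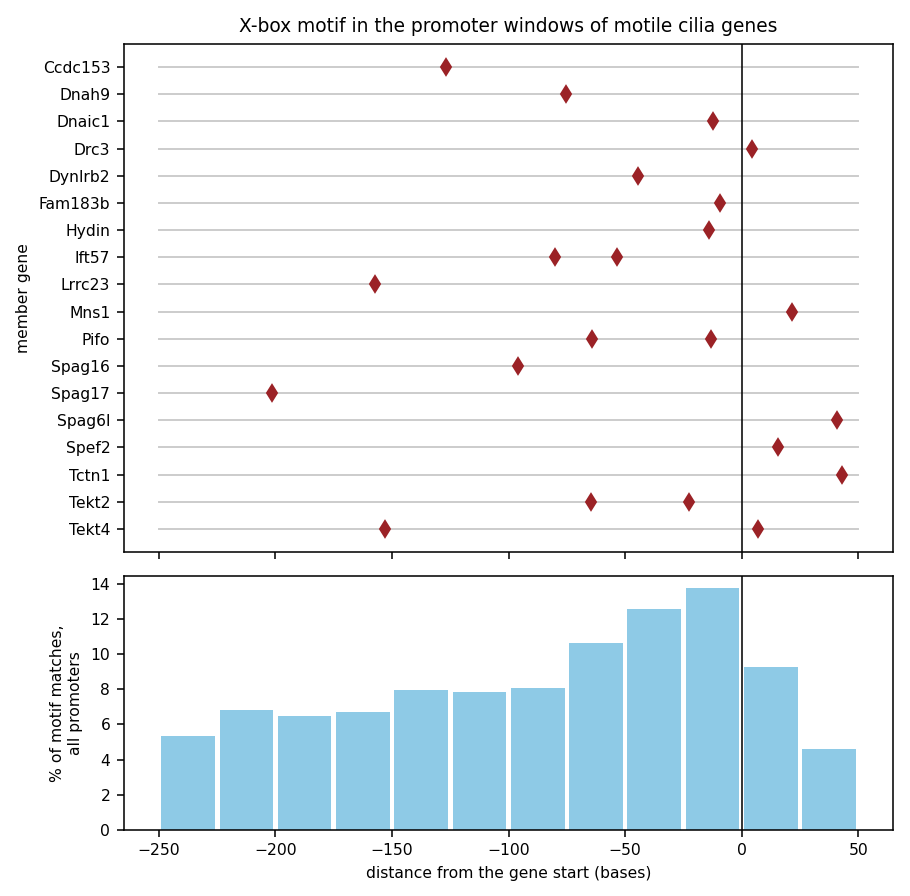
Position of each X-box match relative to the gene start (horizontal axis, bases; the vertical line is the start) in the 18 member genes that hold one (upper panel, 1 row per gene, diamonds are motif centres), and the share of matches per 25 bases over all promoters of the table (lower panel, percent). Tekt2 has 2 annotated starts that read the same site. Matches gather just before the start in the members and in the table as a whole.

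Several arrays stood apart before any gene was compared. For the Gapdh control the 3′ over 5′ signal lay between 0.815 and 1.51 on Norm arrays, 0.786 and 1.11 at 10 h, 3.64 and 4.60 at 2 d, 0.859 and 1.49 at 4 d, and 1.40 and 1.68 at 6 d. In deposit order the 2 d and 6 d arrays stand together, apart from Norm, 10 h and 4 d, so a difference of 2 d or 6 d from Norm and a difference between deposits cannot be told apart, whereas 4 d minus 10 h and 6 d minus 2 d stay within a deposit. The A array titled Norm 1a stood in the B table, did not correlate with other B arrays (Spearman -0.00277 to 0.00963) and was left out. On A, the arrays labelled Norm 1b and 4 d 1a went against their labels: the first correlated with B and C arrays of 4 d at 0.147 and 0.145 and with those of Norm at -0.00193 and 0.0428, and the second with those of 4 d at -0.0147 and 0.00766 and with those of Norm at 0.0517 and 0.0309. Results are therefore also given from B and C arrays alone. Markers of alveolar type 2 cells (Sftpc), club cells (Scgb1a1 and Cyp2f2) and alveolar type 1 cells (Ager) were above the floor on 9 of 9 A arrays, while Krt5 of basal cells and Muc5ac of goblet cells were above it on 0 of 9. Trp63, another basal cell marker, was above it on 3 of 9 A arrays and 3 of 10 C arrays.

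Most motile cilia genes could be measured in whole lung. A floor was set at the 40th percentile of each array type, which is 236.05 for A, 297.36 for B and 200.93 for C, and probe sets above it on at least 2 arrays were tested, which kept 49 of the 61 member probe sets for 36 genes, with 10 from A, 11 from B and 28 from C. Of the 49, 42 were above the floor in all 5 groups. The 12 not tested were above it in 0 groups (9) or in 1 (3), and Iqcg, of the dynein regulatory complex, had no other probe set. The median SD between the arrays of a group was 0.29 on the log2 scale for members and 0.26 for all 25801 probe sets tested. In bulk lung, fewer ciliated cells and less RNA per ciliated cell cannot be told apart.

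Over B and C, which leave out the 2 A arrays with label doubts, the 39 member probe sets stood highest in Norm and lowest at 2 d and 6 d. The correlations above set A against B and C, so they cannot say which side is mislabelled. The median deviation from the mean of the groups was 0.27 and 0.42 log2 units in the Norm samples, 0.37 and 0.08 at 10 h, -0.26 and -0.21 at 2 d, -0.11 and 0.02 at 4 d, and -0.27 and -0.27 at 6 d. Both samples of Norm and of 10 h lay above all samples of the later times. The summed intensity of the 28 members with a representative probe set on B or C was 45384 and 54450 in Norm, 49066 and 43001 at 10 h, 27505 and 25782 at 2 d, 36290 and 38497 at 4 d, and 30160 and 29430 at 6 d. The 9 club cell genes of the same arrays summed to 39444 and 39215 in Norm, 26524 and 40738 at 10 h, 30292 and 29971 at 2 d, 41528 and 38181 at 4 d, and 34659 and 33258 at 6 d. The 8 alveolar type 2 genes summed to 156065 and 136307 in Norm, 113258 and 121037 at 10 h, 113524 and 107438 at 2 d, 177334 and 170966 at 4 d, and 203581 and 200100 at 6 d. The cilia sums were thus lowest at 2 d and 6 d, the club range at 10 h held every other club sum except 1 at 4 d, and the alveolar type 2 sums were highest at 6 d. Muscle markers were low with the cilia genes at 2 d and 6 d minus Norm. At 2 d minus Norm 11 of 12 heart muscle genes tested were lower (median -0.85). So were 11 of 14 skeletal muscle genes (median -0.78), against 47.3% of all probe sets. At 6 d minus Norm their medians were -0.53 and -0.60, and at 4 d minus 10 h 0.12 and 0.54. Muscle markers parted from the cilia genes at 10 h minus Norm, with medians of -0.62 for heart and -0.8 for skeletal muscle. The cilia median there was -0.04. All but 1 gene of each muscle list were on A, where Norm is the single array labelled Norm 1b. The part of these other cell types, and of the Gapdh ratio, in the cilia values was not tested.

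**Figure D2:**
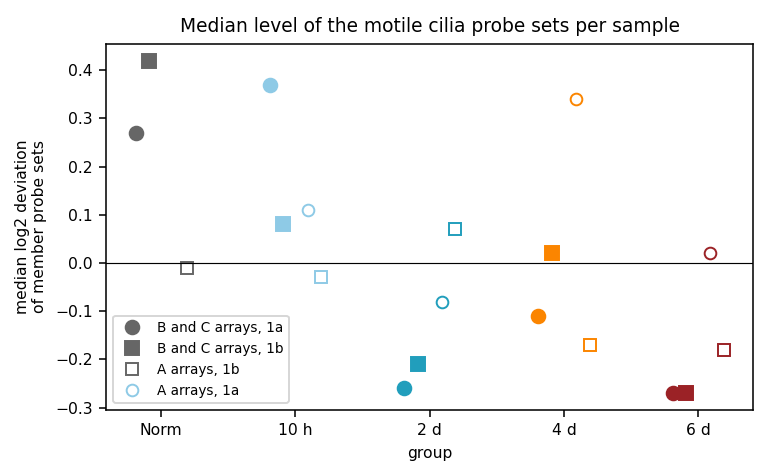
Median deviation (vertical axis, log2 units, each probe set relative to its own mean over the groups) of the member probe sets in each sample by group (horizontal axis). Filled symbols are the 39 probe sets on B and C, open symbols the 10 on A, circles 1a and squares 1b; Norm 1a has no A array. On B and C, Norm and 10 h lie above the later groups, while the A arrays do not follow this order.

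The comparisons that the choice of genes did not name were 4 d minus 10 h, 6 d minus 2 d, and the late groups (4 d with 6 d, averaged) minus the early ones (10 h with 2 d), called late minus early. Each of them is nevertheless made of the same 10 h, 2 d, 4 d and 6 d arrays whose differences from Norm were known when the list was chosen, so none is independent of that choice. They were tested with limma over all probe sets. At 4 d relative to 10 h, 31 of 49 member probe sets were lower (63.3%, against 48.5% of all probe sets), with a median difference of -0.17 (all probe sets 0). None passed an adjusted p under 0.05, where 0.0233% of all probe sets passed. At an unadjusted p under 0.05, 8 of 49 (16.3%) were called, all lower, against 8.08% of all probe sets. On B and C alone 27 of 39 were lower, with a median of -0.23. The median was -0.03 without 10 h 1a and -0.32 without 10 h 1b.

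Between 6 d and 2 d the members differed, on balance, by close to 0. The Gapdh ratio also differed inside this comparison, with 3.64 to 4.6 at 2 d and 1.4 to 1.68 at 6 d. For the actin control the 3′ over 5′ signal was 3.64 to 4.98 at 2 d and 0.474 to 1.66 at 6 d. Late minus early holds the same 2 d arrays, and the part of these ratios was not tested. Of 49, 21 were lower and 26 higher at 6 d than at 2 d, with a median of 0.01, and 0 passed against 0.062% of all probe sets. At an unadjusted p under 0.05, 3 were called (6.12%; 2 lower and 1 higher) against 13% of all. For late minus early, 32 of 49 were lower, the median was -0.08, 0 passed against 0.0155% of all probe sets, and 7 (14.3%; 6 lower) had an unadjusted p under 0.05 against 11% of all. The smallest adjusted p of any member in the 3 comparisons was 0.109, for Ccdc153 at 4 d minus 10 h.

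**Figure D3:**
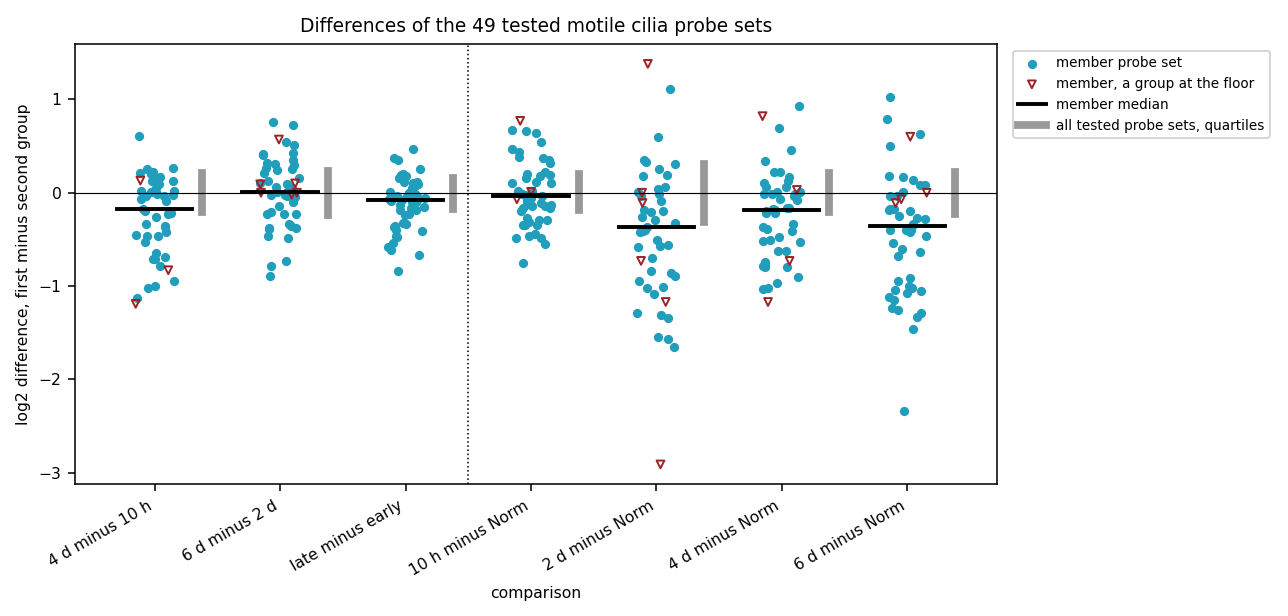
Log2 difference (vertical axis, first minus second group) of the 49 tested member probe sets in each comparison (horizontal axis). Each point is a probe set, an open triangle one with a group at the floor (a bound), the black line the member median and the grey bar the middle quartiles of all tested probe sets. Left of the dotted line are the comparisons that were tested and right of it those with Norm, which chose the genes; at 2 d and 6 d minus Norm the medians are -0.37 and -0.36.

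The regulators differed little between groups. Foxj1, the forkhead factor required for motile cilia, read 1462 on the A array labelled Norm 1b, 1561 and 1298 at 10 h, 1029 and 1549 at 2 d, 1967 and 1075 at 4 d, and 1584 and 1643 at 6 d. The range at 4 d held all the other values except 1 at 2 d, and its 1967 came from the array labelled 4 d 1a. Its difference at 4 d minus 10 h was 0.03 ± 0.30 (SE) and at 6 d minus 2 d 0.35 ± 0.30. Rfx3, which binds the X-box, read 620 and 617 in Norm, 590 and 532 at 10 h, 452 and 567 at 2 d, 505 and 602 at 4 d, and 505 and 514 at 6 d. Both Norm samples lay above all others, and the difference was -0.02 ± 0.22 at 4 d minus 10 h and 0.01 ± 0.22 at 6 d minus 2 d, neither passing (limma, adjusted p = 1 for both).

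Dynein arm genes, with 7 tested probe sets, had medians of 0.13 at 4 d minus 10 h and 0.13 at 6 d minus 2 d, and 0 passed. Dnali1, a light intermediate chain of inner arms, read 1661 and 2959 in Norm, 1970 and 1172 at 10 h, 727 and 1048 at 2 d, 1318 and 1266 at 4 d, and 1261 and 1060 at 6 d on its _s_at probe set. Both 2 d samples lay below both Norm samples, and the second tested probe set had the same order, with 791 and 501 at 2 d and 1193 and 2033 in Norm. Dnah9, a heavy chain of the outer arm, read 919 and 683 in Norm, 787 and 1041 at 10 h, 862 and 420 at 2 d, 845 and 1409 at 4 d, and 645 and 669 at 6 d. No group lay apart from all the others, with differences of 0.27 ± 0.42 at 4 d minus 10 h and 0.13 ± 0.42 at 6 d minus 2 d. Dnah5, the other outer arm heavy chain among the members on the chips, was near the floor. Dnaic1 and Dnaaf1, an outer arm intermediate chain and an arm assembly factor, had differences between -0.46 and 0.13 in these comparisons.

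Central pair genes, with 10 tested probe sets, had a median of -0.44 at 4 d minus 10 h (7 lower, 0 passed) and of 0.04 at 6 d minus 2 d. Spag6l, which holds the central pair together, read 453 and 451 in Norm, 479 and 438 at 10 h, 35 and 59 at 2 d, 54 and 91 at 4 d, and 231 and 79 at 6 d on 165445_at. All Norm and 10 h samples were above the floor, and 5 of the 6 later ones were below it. At 4 d minus 10 h this probe set differed by -1.19 ± 0.24, a bound of at least 2.28-fold lower (adjusted p = 0.183). The other probe set, 166639_at, read 1296 and 1748 in Norm, 1493 and 1037 at 10 h, 144 and 120 at 2 d, 699 and 849 at 4 d, and 410 and 217 at 6 d. It was lowest at 2 d, where both samples were below the floor, with a difference of -0.69 ± 0.42 at 4 d minus 10 h and a bound of at least 0.57 ± 0.42 at 6 d minus 2 d. Spag6l's 2 probe sets thus shared the low value at 2 d and differed at 4 d.

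Spef1, which bundles the central microtubules, did not follow Spag6l. It read 2694 on the array labelled Norm 1b, 2749 and 2698 at 10 h, 3030 and 3123 at 2 d, 3115 and 3155 at 4 d, and 2279 and 2417 at 6 d. Both 6 d samples lay below all the others, and the difference at 6 d minus 2 d was -0.39 ± 0.12 (adjusted p = 0.229). Hydin, a large protein of a central pair projection, read 1575 and 1191 in Norm, 1067 and 1168 at 10 h, 1188 and 1664 at 2 d, 1213 and 1382 at 4 d, and 1360 and 1408 at 6 d. The 10 h samples were the lowest, and the differences were 0.21 ± 0.24 at 4 d minus 10 h and -0.02 ± 0.24 at 6 d minus 2 d. The 3 tested probe sets of Spag16 disagreed, with differences at 4 d minus 10 h of -1.02 ± 0.39, -0.42 ± 0.45 and 0.05 ± 0.67. Spag17 and Spef2 had differences between -0.71 and -0.17 at 4 d minus 10 h.

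Radial spoke genes, with 5 tested probe sets, had medians of -0.20 at 4 d minus 10 h and 0.05 at 6 d minus 2 d, and 0 passed. Rsph1, of the spoke head, read 2157 on the array labelled Norm 1b, 2421 and 2527 at 10 h, 1724 and 2379 at 2 d, 2688 and 1718 at 4 d, and 2239 and 1958 at 6 d, and the range at 4 d held all the other values. Lrrc23, a spoke protein, read 821 and 663 in Norm, 1090 and 1061 at 10 h, 569 and 939 at 2 d, 461 and 670 at 4 d, and 588 and 533 at 6 d on the C probe set. Both 10 h samples were above all others there, and the difference at 4 d minus 10 h was -0.95 ± 0.37 (adjusted p = 0.537), while its A probe sets differed by -0.04 ± 0.40 and 0.14 ± 0.18. That C probe set, 169586_i_at, is not the representative one. On the representative, 104667_at on A, Lrrc23 read 568 on the array labelled Norm 1b and 976 and 559 at 10 h. Its later values were 645 and 385 at 2 d, 893 and 581 at 4 d, and 735 and 490 at 6 d. Rsph9, also of the spoke head, had -0.36 ± 0.24.

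Of the dynein regulatory complex and the rulers that set the axoneme's repeat, 4 probe sets were tested, with medians of -0.19 at 4 d minus 10 h and -0.02 at 6 d minus 2 d. Drc3 read 3646 and 4363 in Norm, 3550 and 2771 at 10 h, 2321 and 1991 at 2 d, 2944 and 3166 at 4 d, and 1841 and 1831 at 6 d on 168221_f_at. The 2 d and 6 d samples lay below all Norm, 10 h and 4 d samples, and the differences within a deposit were -0.04 ± 0.18 at 4 d minus 10 h and -0.23 ± 0.18 at 6 d minus 2 d. The _f suffix marks probes shared with similar transcripts, and the second Drc3 probe set, 166382_f_at, was of the same kind. It read 3105 and 3052 in Norm, 3276 and 1784 at 10 h, and 2454 and 2193 at 2 d. At 4 d it read 2518 and 2772 and at 6 d 2470 and 2207. Its range at 10 h held all the other values, so the groups did not separate on it. Ccdc39, a ruler protein, read 541 and 549 in Norm, 706 and 523 at 10 h, 325 and 453 at 2 d, 525 and 441 at 4 d, and 388 and 361 at 6 d on B. Both 2 d and both 6 d samples lay below Norm and 10 h.

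Tektins and other inner proteins of the microtubules had 5 tested probe sets, with medians of 0.02 at 4 d minus 10 h and 0 at 6 d minus 2 d, and members on both sides of 0. Fam183b, a protein of the axoneme, read 1263 and 1872 in Norm, 1389 and 1669 at 10 h, 965 and 1103 at 2 d, 783 and 999 at 4 d, and 554 and 562 at 6 d. All 6 samples from 2 d on lay below the 4 samples of Norm and 10 h, and both 6 d samples were below every other. Its difference was -0.78 ± 0.24 at 4 d minus 10 h (adjusted p = 0.405), -0.89 ± 0.24 at 6 d minus 2 d (adjusted p = 0.161) and -0.84 ± 0.17 at late minus early (adjusted p = 0.164), so it did not pass in any of them. Tekt2 read 541 and 449 in Norm, 1214 and 504 at 10 h, 387 and 681 at 2 d, 733 and 856 at 4 d, and 916 and 788 at 6 d on C. The 4 d and 6 d samples lay above both Norm samples, and the difference at 6 d minus 2 d was 0.73 ± 0.47, opposite in sign to that of Fam183b. Tekt4, named after its values were seen, had -0.71 ± 0.24 at 4 d minus 10 h. Mns1, also named after its values were seen, had 0.61 ± 0.35, a value that rests on 842 on the array labelled 4 d 1a, against 377 on 4 d 1b. Tekt1 was above the floor in 2 groups.

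Of transport and transition zone genes 5 probe sets were tested, with medians of -0.22 at 4 d minus 10 h and -0.10 at 6 d minus 2 d. Dynlrb2, a dynein light chain, read 6356 and 8443 in Norm, 6142 and 5852 at 10 h, 3920 and 3053 at 2 d, 3327 and 5751 at 4 d, and 4349 and 4790 at 6 d. All samples from 2 d on were below Norm and 10 h, with -0.45 ± 0.26 at 4 d minus 10 h and 0.40 ± 0.26 at 6 d minus 2 d. Ift88, a core subunit of intraflagellar transport that primary cilia need too, read 2990 on the array labelled Norm 1b, 2189 and 2672 at 10 h, 3345 and 4319 at 2 d, 2875 and 2306 at 4 d, and 2994 and 2847 at 6 d. Its 2 d samples were the highest, the reverse of Dynlrb2, while on its _r_at probe set 6 d 1b, at 2117, was the highest. Ift57, a subunit of the same complex, had -0.09 ± 0.26 at 4 d minus 10 h, and Tctn1, of the transition zone, -0.26 ± 0.27.

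The remaining genes of ciliated cells, with 11 tested probe sets, had medians of -0.37 at 4 d minus 10 h (8 lower) and 0.09 at 6 d minus 2 d. Ccdc153, an axonemal coiled-coil protein, read 2267 and 2171 in Norm, 2215 and 2175 at 10 h, 1177 and 1306 at 2 d, 1223 and 980 at 4 d, and 1158 and 993 at 6 d. The 4 samples of Norm and 10 h lay close together, and the 6 later ones were all below them. Its difference of -1.0 ± 0.16 at 4 d minus 10 h (2.00-fold lower, adjusted p = 0.109) had the smallest p of any member. Over 22 alternatives in processing or samples it ran from -1.16, without 4 d 1a, to -0.84, and it did not pass in 21 of them. From 2 d to 6 d it differed by -0.21 ± 0.16. Capsl, a calcium-binding protein named after its values were seen, read 545 and 444 in Norm, 482 and 583 at 10 h, 172 and 200 at 2 d, 247 and 98 at 4 d, and 339 and 290 at 6 d. The 2 d and 4 d samples were below the floor, and the difference at 4 d minus 10 h was at least -0.83 ± 0.17 (adjusted p = 0.178).

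Ak7, an adenylate kinase of cilia, read 2098 and 2066 in Norm, 2342 and 2139 at 10 h, 728 and 675 at 2 d, 752 and 1388 at 4 d, and 900 and 835 at 6 d on 137359_at. Norm and 10 h lay above all later samples, with -1.13 ± 0.29 at 4 d minus 10 h (adjusted p = 0.281) and 0.31 ± 0.29 at 6 d minus 2 d. Its other tested probe set, whose _g suffix marks a group of related transcripts, read 1211 and 1245 at 2 d and 1126 and 872 in Norm and differed by 0.22 ± 0.33 at 4 d minus 10 h. Sntn, which marks the tips of airway cilia, read 3858 and 5781 in Norm, 7708 and 4827 at 10 h, 2254 and 1644 at 2 d, 5122 and 3470 at 4 d, and 2052 and 1964 at 6 d. The 2 d and 6 d samples were lowest and did not overlap the others, while 4 d overlapped Norm. Ccdc113, a ciliary coiled-coil protein, read 2057 and 2656 in Norm, 1784 and 1614 at 10 h, 1275 and 1044 at 2 d, 1709 and 1527 at 4 d, and 1138 and 1142 at 6 d. Its 2 d and 6 d samples again lay below the rest. The only Ccdc113 probe set, 165769_f_at, carries the same _f suffix as those of Drc3.

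Sec14l3, a lipid-binding protein abundant in airway ciliated cells, showed opposite patterns on its 2 probe sets. On 115934_at it read 6828 and 6573 in Norm, 4724 and 7160 at 10 h, 3710 and 3002 at 2 d, 6597 and 6499 at 4 d, and 5661 and 5640 at 6 d. On 162542_r_at it read 9744 and 10785 in Norm, 10127 and 8585 at 10 h, 19409 and 25244 at 2 d, 7942 and 8342 at 4 d, and 19545 and 12833 at 6 d. The first had its lowest group mean at 2 d and the second its highest, and the _r suffix marks a probe set with fewer or cross-hybridising probes. The differences at 6 d minus 2 d were 0.76 ± 0.21 (adjusted p = 0.164) and -0.48 ± 0.27. Pifo, Tppp3 and Spa17 had differences between -0.46 and 0.12 at 4 d minus 10 h.

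**Figure D4:**
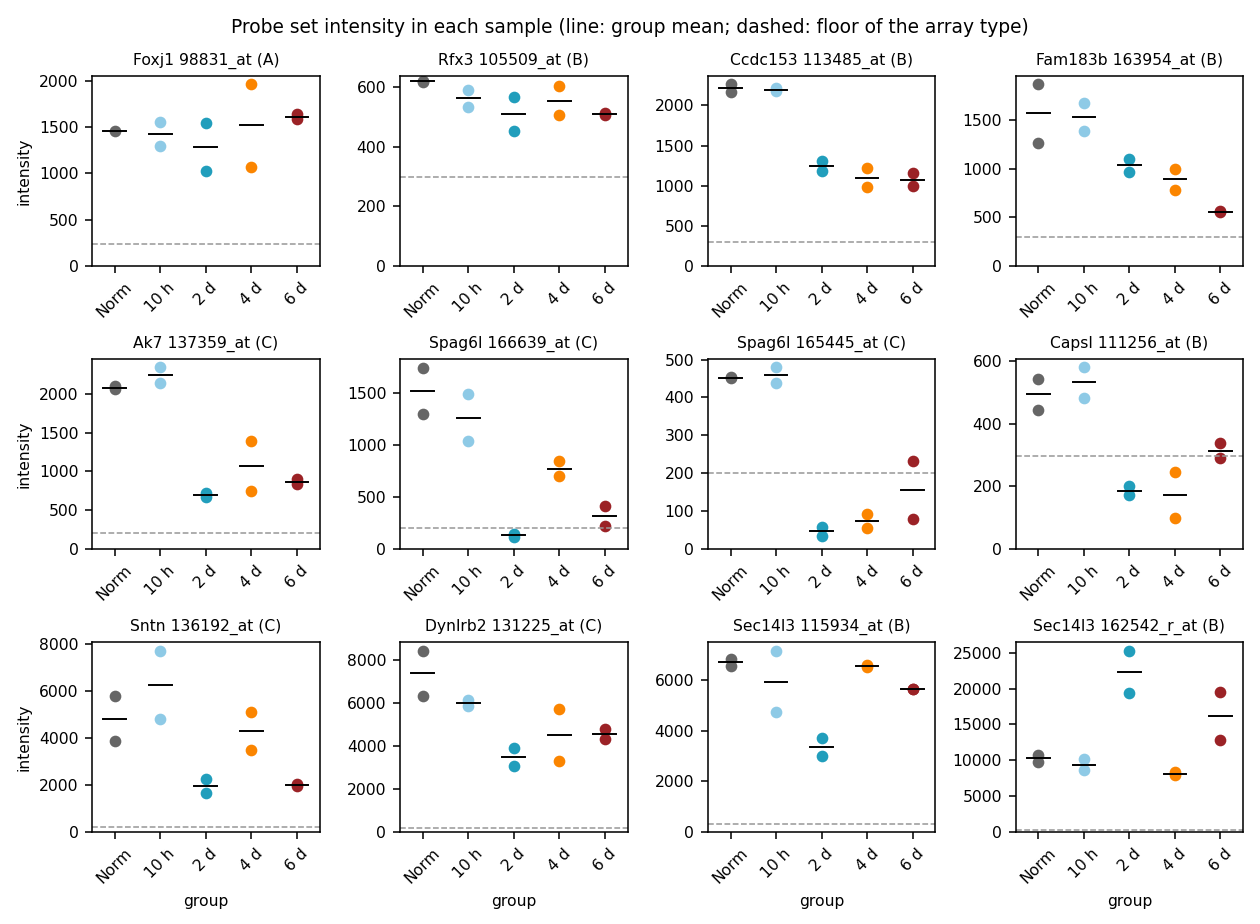
Intensity (vertical axes, arbitrary units, from 0) in each sample by group (horizontal axes) for 12 probe sets of 10 members; points are samples, black lines group means and dashed lines the floor of the array type. Ccdc153, Fam183b and Ak7 are lower in every sample from 2 d on than in Norm and 10 h, Foxj1 and Rfx3 differ little, and the 2 probe sets of Sec14l3 run in opposite directions at 2 d.

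Against Norm, the values that chose the list are as follows. At 10 h minus Norm 27 of 49 were lower, with a median of -0.04 and 0 past the threshold (all probe sets: 0% adjusted, 6.11% unadjusted). At 2 d minus Norm 36 of 49 were lower, with a median of -0.37 and 7 past the threshold, all lower, where 1.86% of all probe sets passed and 1.09% passed as lower. The unadjusted count there was 18 of 49, against 18.9% of all probe sets. At 4 d minus Norm 34 were lower, with a median of -0.18, 0 past (0.00775% of all) and 9 unadjusted (6.13% of all). At 6 d minus Norm 37 were lower, with a median of -0.36, 0 past (0% of all) and 19 unadjusted (9.17% of all). These 4 comparisons share the same Norm arrays.

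The 7 probe sets past the threshold at 2 d minus Norm belonged to 6 genes. Spag6l differed by -2.91 ± 0.42 and -1.17 ± 0.24 on its 2 probe sets, both bounds, at least 7.49-fold and at least 2.25-fold lower. The 2 d values of both probe sets stood at the floor and carried no spread, so these SE can be too small. Ak7 differed by -1.57 ± 0.29, Ccdc113 by -1.02 ± 0.21 and Sec14l3 by -1.01 ± 0.21 on 115934_at, against 1.11 ± 0.27 on its other probe set. Drc3 differed by -0.89 ± 0.18 and Ccdc153 by -0.84 ± 0.16. Sntn differed by -1.29 ± 0.30 and Capsl by at least -0.73 ± 0.17, and neither passed. The members were chosen with these differences known, so the count of 7 past the threshold is a description and not a test. The count was 0 when only 2 d and Norm were fitted, and 0 without either 2 d sample. It was also 0 without Norm 1b, either 10 h sample or either 6 d sample, and 1 without Norm 1a, 3 without 4 d 1a and 2 without 4 d 1b. The 2 d arrays are also those with the high Gapdh ratio. At 4 d and 6 d minus Norm, Ccdc153 stood at -1.02 ± 0.16 and -1.05 ± 0.16, and 166639_at of Spag6l at -0.97 ± 0.42 and -2.34 ± 0.42.

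**Figure D5:**
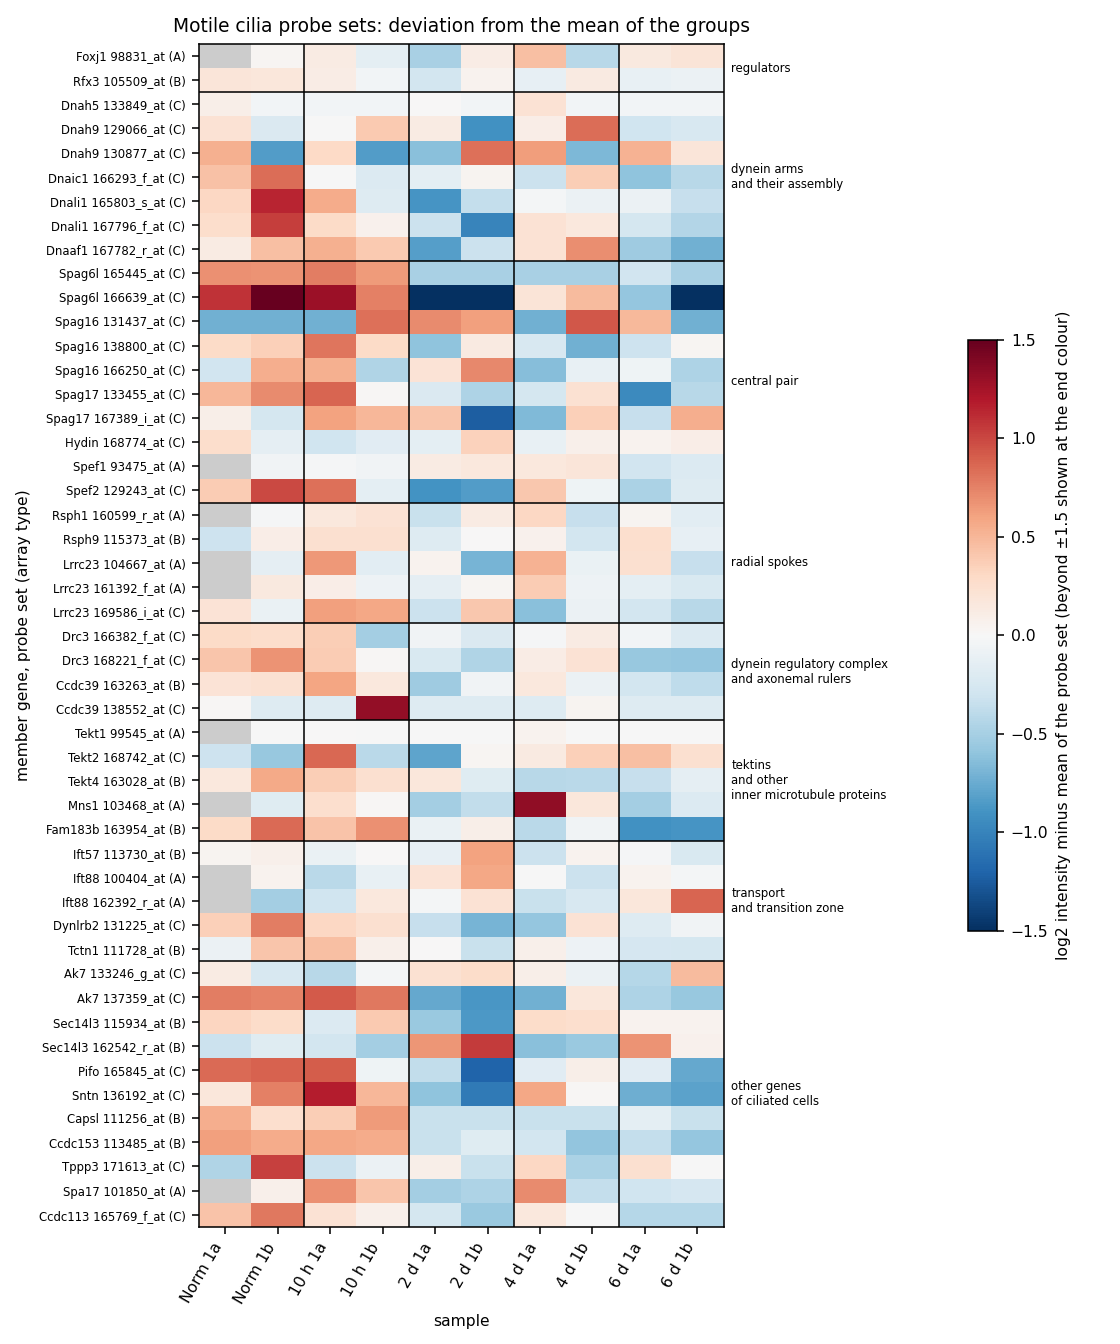
Log2 deviation of each tested member probe set from its mean over the groups (colour, log2 units, red higher and blue lower, grey no array) in each sample (horizontal axis, groups in time order after Norm), with probe sets in rows by role. Spag6l 165445_at, Capsl and Ccdc153 are red in Norm and 10 h and blue from 2 d on; Rfx3, Hydin and Spef1 stay pale.

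The medians of genes with and without an X-box match were close in some comparisons and apart in others, and the difference was not tested. At 4 d minus 10 h the 18 genes with a match had a median of -0.22 (13 lower) and the 14 without one -0.15 (9 lower). At 6 d minus 2 d both medians were 0.03, at late minus early they were -0.10 and -0.08, and at 2 d minus Norm -0.57 and -0.54. At 10 h minus Norm they were -0.08 with a match and 0.01 without, at 4 d minus Norm -0.57 and -0.17, and at 6 d minus Norm -0.64 and -0.32, in comparisons that share the Norm arrays and chose the list. Ccdc153, Fam183b, Dynlrb2 and Spag6l, which were lower in every sample from 2 d on, hold the motif shown above. So does Hydin, whose differences were small. Ak7 on 137359_at and Capsl were also lower in every sample from 2 d on, and their windows held no match. For Dynlrb2 the gap was narrow, with 5751 at 4 d against 5852 at 10 h. The share of all tested probe sets with the same separation is not given here, so no result about the members is read from it.

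Other cilia genes, from lists that leave the members out, were counted the same way with 1 probe set per gene. These lists, and those of other cell types, were also chosen with earlier results of these data known. Their values against Norm, passes included, are a description and not a test. At 2 d and 6 d they cannot be told apart from a difference between deposits. Of 111 other axoneme and motility genes 55 were tested. At 4 d minus 10 h 39 were lower and 14 higher, with a median of -0.19, 0 past the threshold and 5 (all lower) with an unadjusted p under 0.05, where 8.08% of all probe sets were called, a share close to theirs. At 6 d minus 2 d the median was 0.02 and at late minus early -0.10. The smallest p at 4 d minus 10 h were those of Cfap52 (-0.85 ± 0.19, adjusted p = 0.21), Ccdc146 (-0.68 ± 0.22, adjusted p = 0.445) and Cfap65 (-1.25 ± 0.41, adjusted p = 0.468), all ciliary proteins. At 2 d minus Norm 37 of the 55 were lower and 2 passed, where 1.86% of all probe sets did: Cfap43 (-2.28 ± 0.42, adjusted p = 0.0361) and Traf3ip1, a transport complex subunit (-1.25 ± 0.17, adjusted p = 0.0203). Traf3ip1 was placed in this list and not with the transport genes below.

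Genes that primary cilia share, and those of basal bodies, had medians of mixed sign. Intraflagellar transport and BBSome genes (35 tested of 41) had medians of -0.09 at 4 d minus 10 h and -0.24 at 2 d minus Norm. Their counts leave out Traf3ip1, a transport subunit that passed at 2 d minus Norm and was counted with the axoneme genes. For transition zone and primary cilium genes (21 of 29) the medians were -0.24 at 4 d minus 10 h and 0.19 at 2 d minus Norm, and for genes of multiciliated cell fate and basal bodies (22 of 31) -0.04 and -0.19 in the same order, with 0 past the threshold in these lists and comparisons. At an unadjusted p under 0.05, the 3 lists had 5, 1 and 1 genes at 4 d minus 10 h and 9, 2 and 3 at 2 d minus Norm, where 8.08% and 18.9% of all probe sets were called. The transition zone list and the fate and basal body list were below those shares in both comparisons. An X-box match was present in 35.1% of windows of the other axoneme genes, 18.9% of the transport and BBSome genes, 28.6% of the transition zone genes and 11.1% of the fate and basal body genes, against 50% of member windows.

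Club cells, the secretory neighbours of ciliated cells in the mouse airway, had 24 of 30 listed genes tested, with medians of -0.09 at 4 d minus 10 h and -0.21 at 2 d minus Norm. None passed in the tested comparisons (unadjusted 0 at 4 d minus 10 h, 5 at 6 d minus 2 d and 6 at late minus early, where 8.08%, 13% and 11% of all probe sets were called). At 2 d minus Norm 13 were lower and 10 higher, and 2 passed where 1.86% of all probe sets did: Cyp2f2, a cytochrome P450 of club cells (-2.03 ± 0.33, adjusted p = 0.0298, with a single Norm array), and Aox3, an aldehyde oxidase (-1.03 ± 0.16, adjusted p = 0.0212). Scgb1a1, the main secretory protein of club cells, had a positive difference there that did not pass (1.68 ± 0.64, adjusted p = 0.204), as had Krt15, a keratin (0.58 ± 0.16, adjusted p = 0.0987). The club values at 2 d minus Norm are likewise a description and not a test. The promoter windows of the club list held the X-box in 0 of 23 cases.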

How the data were processed

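The authors deposited 1 probe set intensity per array on a linear scale. How probes were summarised and scaled is not stated. With 2% trimmed at each end, array means lay between 800.2 and 800.4 on all 29 arrays used, so no normalization was added. Of the 30 columns, 1 was not used: the misplaced A array. The number of arrays limits the precision.

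Values were floored and log2 taken. limma 3.58.1 in R 4.3.3 fitted 5 group means per array type (lmFit, eBayes with a variance trend). Tests were two-sided, with Benjamini-Hochberg adjustment over 25801 probe sets of the 3 types and a threshold of 0.05. The procedure was tested on simulated data. Differences are log2 with the SE of the fit. A group wholly at the floor gives a bound. Its floored values add no spread, so the SE and p of a bound can be too small. The representative probe set of a gene was a plain one before suffixed ones, then the one highest relative to its type.

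Per-sample values are given for Foxj1, Rfx3, members past the threshold in any comparison, and the 2 members per role with the highest relative level. Among radial spoke genes Lrrc23 came after Rsph1 (2.61) by its probe set 161392_f_at (2.34). On representative probe sets Rsph9 (1.13) stood above Lrrc23 (0.81). Other members were named after their values were seen where so stated. Members and lists were chosen with earlier results of these data known. Gene names came from the platform annotation, which can be old, and sequences from RefSeq (GRCm38.p6). Same-numbered samples did not deviate together (26 pairs, r from -0.158 to 0.134, 1 over 0.1), so numbers were not treated as pairs. Norm samples carry a description that speaks of rejection; titles were followed.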

Additional observations from a re-analysis of the deposited data

How the results depend on the processing

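The counts at 2 d minus Norm were the least stable. Over 21 alternatives the member count there ran from 0 to 8 and stayed the same in 4. The 7 member probe sets past the threshold became 3 with median scaling, 3 with a floor at the 20th percentile, 2 without a filter on dim probe sets, 2 without a variance trend, 2 with 1 probe set per gene, 1 with a replicate block, 0 with only the groups compared, and 0 to 3 without single samples. The replicate block changed no other member count. Without the filter, 1 member passed at 4 d minus 10 h, 1 at 4 d minus Norm and 1 at 6 d minus Norm, and the medians became -0.02, -0.21, -0.07 and -0.20 at 4 d minus 10 h and at 2 d, 4 d and 6 d minus Norm. At 6 d minus Norm the median was -0.26 with median scaling, and at 2 d minus Norm -0.53 with 1 probe set per gene. With B and C arrays only, chosen after seeing the data, the medians at 2 d, 4 d and 6 d minus Norm were -0.51, -0.37 and -0.46. Without single samples, the medians ran from -0.32 to -0.03 at 4 d minus 10 h (0 to 1 passed), from -0.50 to -0.37 at 2 d, from -0.30 to -0.17 at 4 d and from -0.48 to -0.33 at 6 d minus Norm. At 6 d minus 2 d and late minus early, 0 members passed under all 21 alternatives. Over all probe sets, the counts past the threshold ran from 0 to 189 at 4 d minus 10 h (6 as reported), 0 to 100 at 6 d minus 2 d (16), 0 to 87 at late minus early (4), 0 to 733 at 2 d (480), 0 to 61 at 4 d (2), 0 to 73 at 10 h (0) and 0 to 63 at 6 d minus Norm (0). The causes were not tested. Dim probe sets, and A comparisons with a single Norm array, limit what can be seen.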
